A study of Mus musculus with 2 samples.

Results

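The T cell receptor contigs described here are the assembled transcripts of a B cell receptor experiment on mouse Peyer's patches to which the assembly software gave a T cell receptor chain. They were all contigs with the chain call TRA, TRB, TRD or TRG, and there were 246 of them among 22408 contigs. The Cre+ library held 159 of 12300 contigs in 158 of 3748 barcodes, and the Cre- library held 87 of 10108 contigs in 87 of 3245 barcodes. A barcode is the tag of 1 droplet, which ideally holds 1 cell, and a unique molecular identifier (UMI) marks 1 captured transcript molecule.

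Peyer's patches are lymphoid tissue of the gut wall where many B cells change their antibody class to IgA. Each library pooled the CD45+ cells, enriched with magnetic beads, of 4 adult female mice, so it held white blood cells in general and not B cells alone. The mice of the Cre+ library carried H2-Ab1 fl/fl and Villin:Cre+, in which the epithelial Villin promoter drives the recombinase that deletes the MHC class II beta chain gene, and those of the Cre- library carried H2-Ab1 fl/fl without the recombinase (Villin:Cre-). The series' own design statement describes both groups as Cre-negative; the sample labels, which differ, were followed, and H2-Ab1 was not measured in these files. With 1 library per genotype no difference has a replicate check and no test was made. Every interval of a share is an exact 95% Clopper-Pearson interval. Those of differences and medians were derived as described with the processing of the data. All of them reflect counting error alone.

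A complete T cell receptor chain joins a variable (V), in beta and delta chains a diversity (D), and a joining (J) segment in the thymus, and the joined exon is spliced to a constant (C) segment. The joint itself, the CDR3, is the part that differs most between T cells. B cells use the same recombinase on their immunoglobulin genes and as a rule do not assemble complete T cell receptor genes.

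The members did not hold a receptor that could be read. Among 159 Cre+ contigs a V segment was called in 0, and among 87 Cre- contigs likewise in 0, and a D segment in 0 of either. None of them was full length, productive or had a CDR3, so the files give no sequence for any of them. A count of 0 allows shares of up to 2.29% (Cre+) and 4.15% (Cre-). A J segment was called in 141 Cre+ and 77 Cre- contigs, a C segment in 17 and 10, and both together in 0. In 1 Cre+ contig of chain TRA no segment was named at all. By contrast, V was missing from 7.87% of the IGH and 0.325% of the IGK contigs of the Cre+ library, and from 6.68% and 0.166% of those of the Cre- library. Lambda contigs came nearer to the members, with V missing from 81.4% and 81.6%. Apart from the contig without any segment, the chain call thus stood beside exactly 1 J or C segment per contig, and the clonotype tables, with 3558 and 2746 clonotypes, listed a T cell receptor chain in 0 of them.

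The barcodes of these contigs can be shown by their immunoglobulin heavy chains, whose CDR3 sequences are deposited. The sequences below are heavy-chain CDR3 nucleotides, 5′ to 3′, with the codons of the conserved first cysteine and last tryptophan in capitals. The first 4 are the CDR3s shared by barcodes with the same T cell receptor segment, and the 1 of 5 related CDR3s whose barcode also held a T cell receptor contig, and the last 3 are from barcodes with some of the highest UMI counts for a T cell receptor contig.
Cre+ IGHV1-12 with IGHJ4, barcodes with TRAJ17: TGTgcaagagaggggatgaattacTGG
Cre+ IGHV1-12 with IGHJ4, relative of the former, with TRAJ17: TGTgcaagagaagggatggactacTGG
Cre+ IGHV1-72 with IGHJ4, barcodes with TRAJ17: TGTgccctctatgattacggcTGG
Cre+ IGHV1-12 with IGHJ2, barcodes with TRDC: TGTttaaggagggactttgactacTGG
Cre+ IGHV1-72 with IGHJ2, barcode with TRDC: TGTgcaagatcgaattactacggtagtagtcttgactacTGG
Cre- IGHV1-74 with IGHJ3, barcode with TRAJ17: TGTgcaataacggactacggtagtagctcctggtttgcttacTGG
Cre- IGHV1-50 with IGHJ4, barcode with TRDC: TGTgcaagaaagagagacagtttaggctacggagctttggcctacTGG

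Chain TRA, the alpha chain of most T cells, made up 127 of the 159 Cre+ contigs (79.9%, 72.8 to 85.8) and 73 of the 87 Cre- contigs (83.9%, 74.5 to 90.9). TRB, its beta partner, was called in 16 and 5 contigs. The gamma and delta chains of the other T cell lineage were called in 3 and 3 contigs for TRG and in 13 and 6 for TRD. Only 1 barcode, in the Cre+ library, held more than 1 such contig. That IgD barcode carried a TRAJ49 contig with 1 UMI and a TRDC contig with 5 UMIs beside 3 immunoglobulin contigs. No barcode paired TRA with TRB or TRG with TRD.

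Few segments accounted for most contigs, and the most frequent was the same in both libraries. TRAJ9, an alpha J segment, was called in 59 Cre+ contigs (37.1%, 29.6 to 45.1) and 36 Cre- contigs (41.4%, 30.9 to 52.4). TRAJ17 was called in 25 (15.7%, 10.4 to 22.3) and 12 (13.8%, 7.34 to 22.9), and TRAJ43 in 17 (10.7%, 6.35 to 16.6) and 12 (13.8%, 7.34 to 22.9). These 3 segments made up 63.5% of Cre+ and 69.0% of Cre- contigs, although a RefSeq gene table of GRCm38.p6 lists 60 Traj genes and pseudogenes and 16 TRAJ segments were called here at all. For each of the 3, the intervals of both libraries overlapped.

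**Figure D1:**
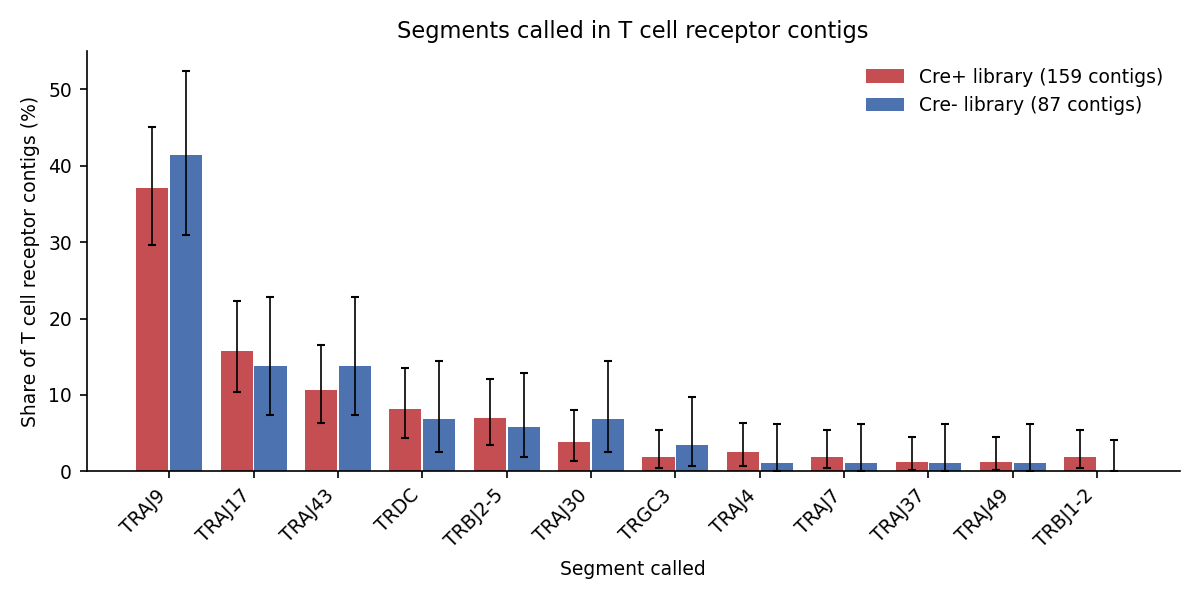
Share of the T cell receptor contigs of each library, in percent, that carry the segment named on the horizontal axis; bars are shares and lines exact 95% intervals, for segments with 3 or more contigs over both libraries. TRAJ9 is highest in both libraries, at 37.1% and 41.4%, and the intervals of the libraries overlap for each of these segments.

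The other segments were rarer. TRBJ2-5, a beta J segment, was called in 11 Cre+ and 5 Cre- contigs, and TRAJ30 in 6 and 6. The delta constant segment TRDC was called in 13 and 6 contigs, which is every TRD contig, and the gamma constant segment TRGC3 in 3 and 3, which is every TRG contig. TRAC, the constant segment of every alpha chain, was called in 1 contig of each library and no contig carried TRBC1 or TRBC2, the beta constant segments. TRAJ4 had 4 and 1 contigs, TRAJ7 had 3 and 1, TRBJ1-2 had 3 and 0, and TRAJ37 and TRAJ49 each had 2 and 1. TRBJ2-2 was called in 2 Cre+ contigs, TRAJ59 in 1 contig of each library, TRAJ21 in 1 Cre- contig, and TRAJ3, TRAJ5, TRAJ28, TRAJ33, TRAJ42 and TRAJ46 in 1 Cre+ contig each. Of the 22 segments called, 13 were called in both libraries.

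All 22 segment names were found in the RefSeq table. On chromosome 14 of GRCm38, Trdc lies at 54142851 to 54146108, Traj43 at 54174742 to 54174798, Traj17 at 54201775 to 54201837, Traj9 at 54209393 to 54209450 and Trac at 54220521 to 54224198. Traj9 thus ends 11071 bases before Trac starts, and no contig joined it to Trac. Trbj2-5 lies on chromosome 6 at 41543453 to 41543501 and Trgc3 on chromosome 13 at 19260885 to 19263397. The table annotates Traj and Trbj entries named here as J segments and Trdc, Trgc3 and Trac as constant regions.

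Lengths differed between segments, and for each segment described here the ranges of both libraries overlapped. The shortest contig deposited in either library had 250 bases. TRAJ9 contigs had a median of 258 bases in the Cre+ library (250 to 446) and 257.5 in the Cre- library (250 to 500), and 42 of 59 and 25 of 36 had fewer than 270 bases, close to that shortest length. A further 13 Cre+ TRAJ9 contigs had 281 to 310 bases and 4 had 430 to 446, and in the Cre- library 8 had 276 to 335 and 3 had 447 to 500. TRAJ43 contigs ran from 283 to 339 bases (median 305) and from 284 to 350 (327.5). TRAJ17 contigs were longer, at 270 to 451 bases (370) and 305 to 499 (368). TRDC contigs had 393 to 477 bases (457) in the Cre+ and 270 to 448 (425) in the Cre- library. Over all members the median length was 310 bases (Cre+) and 305 bases (Cre-), against 687 and 682 for IGH contigs with a V segment.

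**Figure D2:**
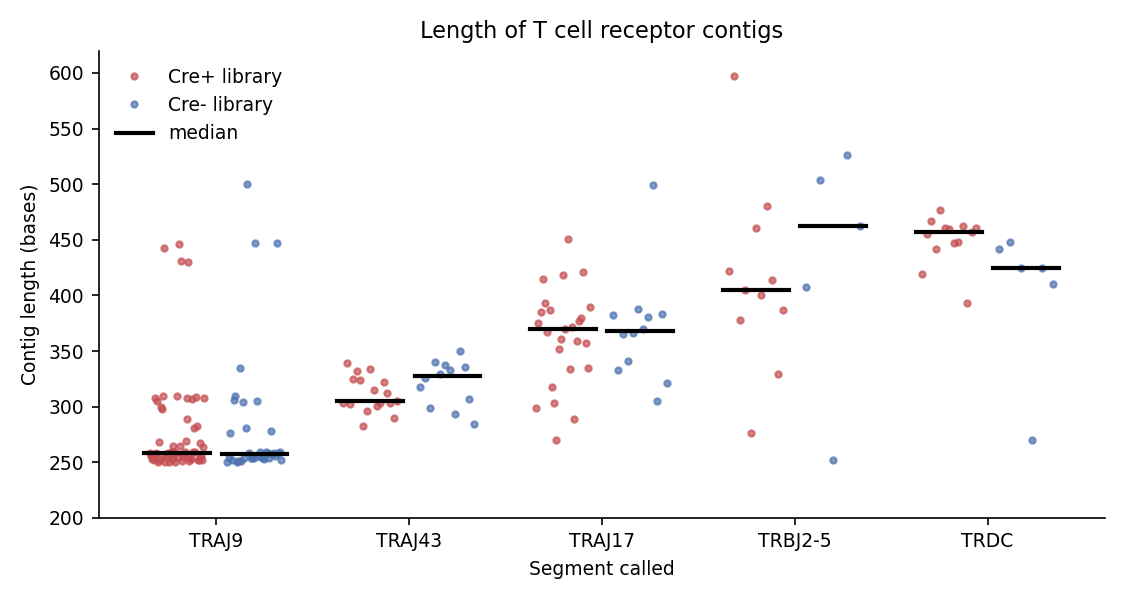
Length in bases of each T cell receptor contig (points) by the segment called, with the median of each library as a line. TRAJ9 contigs gather just above 250 bases, with medians of 258 and 257.5, and TRDC contigs are long in both libraries, with medians of 457 and 425.

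The contigs rested on few transcripts. A single UMI stood behind 105 of the 159 Cre+ contigs (66.0%) and 55 of the 87 Cre- contigs (63.2%), and the highest counts were 22 and 10. The 159 contigs held 322 of the 355258 UMIs of the Cre+ library (0.0906%), and the 87 held 166 of the 355985 of the Cre- library (0.0466%). IGH contigs without a V segment had 1 UMI in 12.4% and 9.02% of cases, with a median of 3 in both libraries. Those with a V segment had 1 UMI in 3.46% and 3.20%, with medians of 8 and 9. Reads were also fewer per molecule than in IGH contigs. Among contigs with 1 UMI the median was 69 reads in Cre+ and 66 in Cre- T cell receptor contigs, against 119 and 112 in IGH contigs without V. It was lower still, at 50 and 58, in contigs with no chain called, of which 41.9% and 46.6% had 1 UMI. Over all members, reads ran from 16 to 1015 (median 76) in the Cre+ and from 25 to 338 (75) in the Cre- library.

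**Figure D3:**
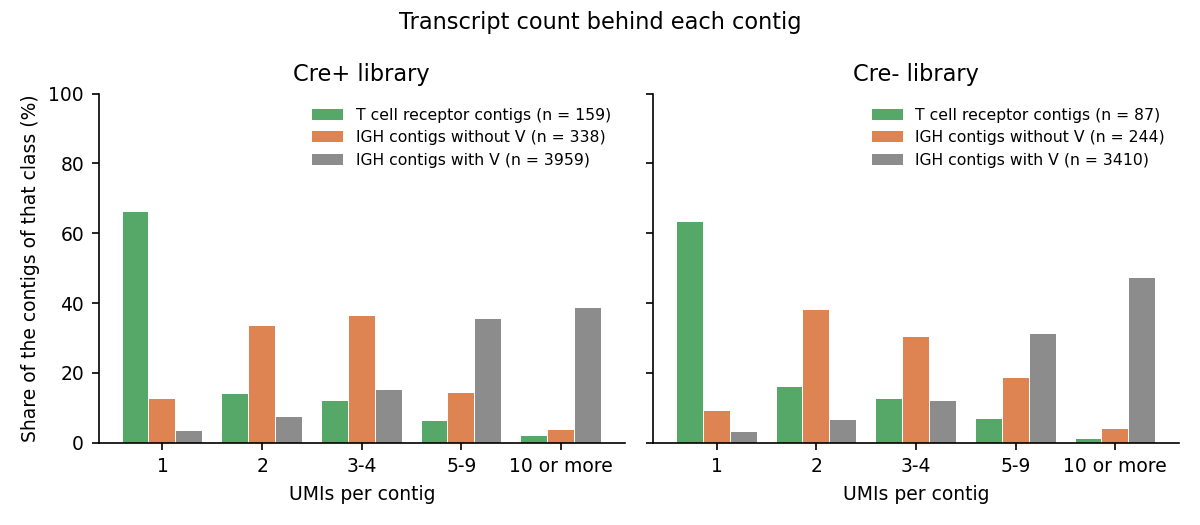
Share of contigs, in percent, by the number of UMIs behind each, for T cell receptor contigs and for IGH contigs without and with a V segment, in each library. Of the 3 classes, T cell receptor contigs alone have most contigs at 1 UMI, at 66.0% (Cre+) and 63.2% (Cre-).

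UMI counts differed between the segments. TRAJ9 contigs had a median of 1 UMI in both libraries, with 46 of 59 and 27 of 36 at 1 UMI and highest counts of 5 and 3. TRAJ43 contigs never exceeded 2 UMIs, and TRBJ2-5 contigs never exceeded 3. TRAJ17 contigs had medians of 3 (1 to 8) and 3.5 (1 to 10), and 21 of 25 and 9 of 12 had more than 1 UMI. TRDC contigs had medians of 4 (1 to 22) and 2 (1 to 6). Contigs with 5 or more UMIs numbered 13 in the Cre+ library, of which 6 were TRDC and 5 TRAJ17, and 7 in the Cre- library, of which 1 was TRDC and 5 TRAJ17. The contig with 22 UMIs was TRDC, in a Cre+ barcode without a productive heavy chain that held 264 UMIs in its other contigs.

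Most barcodes that held these contigs had the heavy chain of a B cell, as did most other barcodes of these B cell receptor libraries. Exactly 1 productive heavy chain was found in 130 of the 158 Cre+ holders (82.3%, 75.4 to 87.9) and 73 of the 87 Cre- holders (83.9%, 74.5 to 90.9). In the other barcodes the shares were higher, at 88.1% (Cre+) and 91.0% (Cre-). A pair of 1 heavy with 1 light chain was found in 123 Cre+ holders (77.8%) and 68 Cre- holders (78.2%), against 79.2% and 82.4%. The intervals of holders and other barcodes overlapped in each case. Each of these shares was lower in holders, and overlapping intervals do not show that the shares are equal. Holders without a productive heavy chain are described below. Heavy and light chains counted in this paragraph were productive ones. The median holder had 3 immunoglobulin contigs (0 to 7) in the Cre+ and 2 (1 to 5) in the Cre- library, against 3 in the barcodes without a T cell receptor contig of both. More than 1 heavy chain, as a droplet with more than 1 B cell can give, was found in 4.43% of Cre+ holders (1.80 to 8.92) and 3.84% of the other Cre+ barcodes (3.24 to 4.53), and 1.15% (0.0291 to 6.24) and 2.60% (2.07 to 3.21) in the Cre- library. Barcodes with 2 or more light chains made up 5.70% of Cre+ holders (2.64 to 10.5) against 10.7% (9.68 to 11.7), and 6.90% of Cre- holders (2.57 to 14.4) against 8.83% (7.87 to 9.88). A droplet with a B cell and a T cell would add no immunoglobulin chain, so these counts do not bear on such droplets. No doublet caller was run.

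The share of barcodes without a productive heavy chain was higher in holders. No productive heavy chain was found in 21 of the 158 Cre+ holders (13.3%, 8.42 to 19.6) against 8.02% of the other barcodes (7.15 to 8.96), intervals that overlap. In the Cre- library it was missing from 13 of 87 (14.9%, 8.20 to 24.2) against 6.40% (5.57 to 7.31), intervals that do not overlap. Neither a productive heavy nor a productive light chain was found in 6 Cre+ holders (3.80%, 1.41 to 8.08) against 0.474% (0.276 to 0.757). The same held for 6 Cre- holders (6.90%, 2.57 to 14.4) against 0.760% (0.488 to 1.13). Only 1 holder, in the Cre+ library, lacked any immunoglobulin contig. All other holders, also those without a productive chain, held at least 1.

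These barcodes without both chains were mostly those with TRAJ17, which held 6 of the 6 in the Cre+ and 5 of the 6 in the Cre- library; TRAJ17 was singled out after its values were seen. A productive heavy chain was missing beside 9 of the 25 Cre+ TRAJ17 contigs (36.0%, 18.0 to 57.5) and 12 of the 134 others (8.96%, 4.71 to 15.1). In the Cre- library it was missing beside 8 of 12 (66.7%, 34.9 to 90.1) and 5 of 75 (6.67%, 2.20 to 14.9). The intervals were apart in both libraries. The TRAJ17 contigs in barcodes without a productive heavy chain had 1, 1, 1, 2, 2, 3, 4, 4 and 8 UMIs in the Cre+ library. In the Cre- library they had 1, 1, 1, 3, 4, 5, 6 and 9. The other contigs of these barcodes summed to between 4 and 15 UMIs in 8 of the 9 Cre+ barcodes and reached 104 in 1, and to between 1 and 10 in 7 of the 8 Cre- barcodes and 44 in 1. In 3 of the 8 Cre- barcodes, those with 5, 6 and 9 UMIs, the TRAJ17 contig had more UMIs than all other contigs of the barcode together, which held 1, 2 and 8. Of all barcodes with neither productive chain, TRAJ17 was found in 6 of 23 Cre+ (26.1%, 10.2 to 48.4) and 5 of 30 Cre- barcodes (16.7%, 5.64 to 34.7). It was found in 0.667% and 0.370% of all barcodes.

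**Figure D4:**
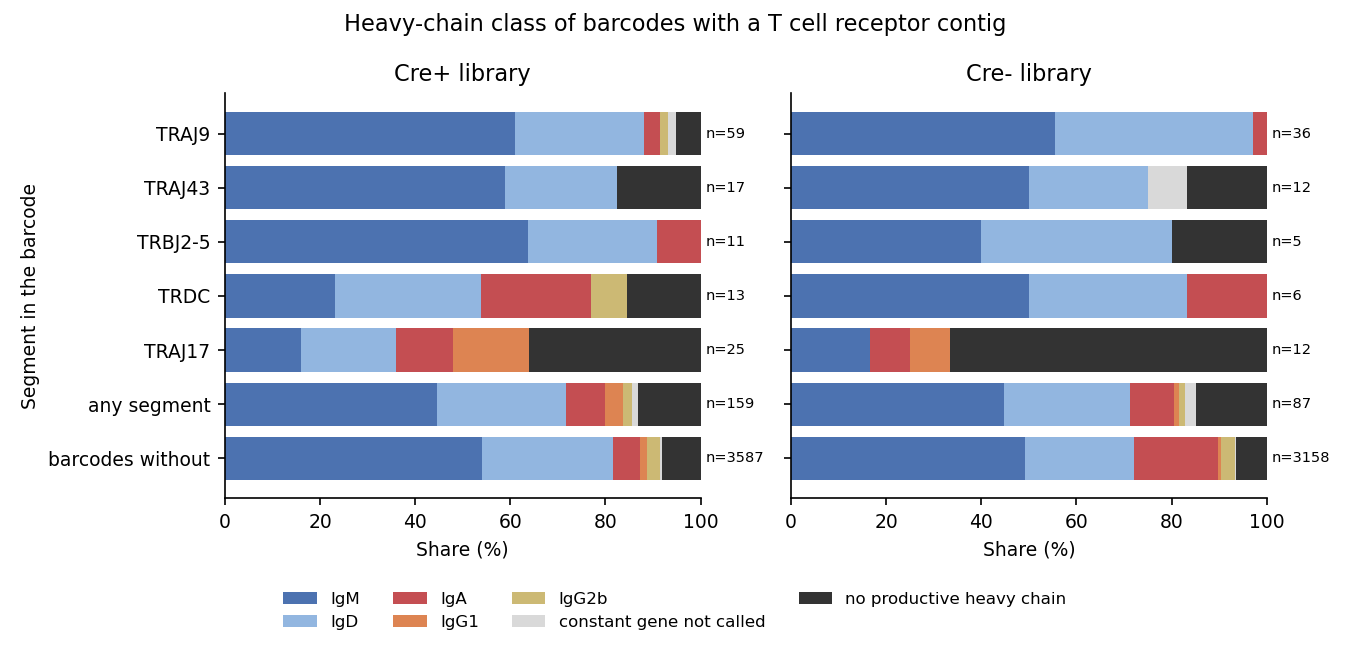
Heavy-chain class of the barcode, as a share in percent, for contigs with the segment named at the left, for all T cell receptor contigs (any segment) and for barcodes without one; n is the number of contigs or, in the bottom bar, barcodes, and the 3 Cre+ IgG3 barcodes are left out. TRAJ9 and TRAJ43 bars are mostly IgM and IgD, as are the bars of barcodes without a T cell receptor contig. TRAJ17 bars have the largest share without a productive heavy chain, at 36.0% and 66.7%.

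The isotype of the holders was mostly unswitched. Among holders with an isotype, IgM and IgD, the classes of B cells that have not switched, made up 113 of 135 Cre+ holders (83.7%, 76.4 to 89.5) and 62 of 72 Cre- holders (86.1%, 75.9 to 93.1). In the other barcodes they made up 89.1% (88.0 to 90.1) and 77.3% (75.7 to 78.8), so holders minus the rest came to -5.37 percentage points (-12.8 to 0.528) for Cre+ and 8.84 points (-1.45 to 16.0) for Cre-. The Cre- direction turned when the most frequent heavy-chain CDR3 was left out: 62 of 71 holders (87.3%, 77.3 to 94.0) and 89.9% of the rest (88.7 to 91.1) were then unswitched, a difference of -2.61 points (-12.7 to 4.22). The same step left the Cre+ difference at -6.24 points (-13.6 to -0.443). Holders with a T cell receptor contig of 2 or more UMIs were unswitched in 30 of 46 Cre+ cases (65.2%, 49.8 to 78.6), an interval below that of the rest. For Cre- it was 17 of 25 (68.0%, 46.5 to 85.1), on the other side of the rest from all holders, with overlapping intervals. TRAJ17 and TRDC made up 31 of the 54 Cre+ and 13 of the 32 Cre- contigs of that kind. Some of these Cre+ barcodes shared a heavy-chain CDR3, as described below, and the intervals count them as independent. The holders' isotypes in the Cre+ library were IgM in 71, IgD in 42, IgA in 13, IgG1 in 6 and IgG2b in 3. In the Cre- library they were IgM in 39, IgD in 23, IgA in 8, IgG1 in 1 and IgG2b in 1. A constant gene was not called in 2 holders of each library.

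Read the other way, 3.54% of IgM (2.77 to 4.44) and 4.07% of IgD barcodes (2.95 to 5.46) of the Cre+ library held a T cell receptor contig. The shares were 2.45% (1.74 to 3.33) and 3.09% (1.97 to 4.60) in the Cre- library. IgA barcodes, the class secreted into the gut, held one in 13 of 214 Cre+ cases (6.07%, 3.27 to 10.2) and 8 of 562 Cre- cases (1.42%, 0.617 to 2.79). A single heavy-chain CDR3 with IGHV4-1 was carried by 416 of those 562 Cre- IgA barcodes, and 1 of the 416 held a T cell receptor contig (0.240%, 0.00609 to 1.33). Outside it the share was 7 of 146 (4.79%, 1.95 to 9.63), against 12 of 159 (7.55%, 3.96 to 12.8) outside the most frequent CDR3 of the Cre+ library, and the difference of 2.75 percentage points had an interval of -3.27 to 8.74. For IgG1, the share was 6 of 60 (10.0%, 3.76 to 20.5) and 1 of 22 (4.55%, 0.115 to 22.8). Some of the Cre+ IgG1 holders shared a heavy-chain CDR3 or carried a related one, as described below, and the interval counts them as independent. For IgG2b, the share was 3 of 104 (2.88%, 0.599 to 8.20) and 1 of 96 (1.04%, 0.0264 to 5.67).

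**Figure D5:**
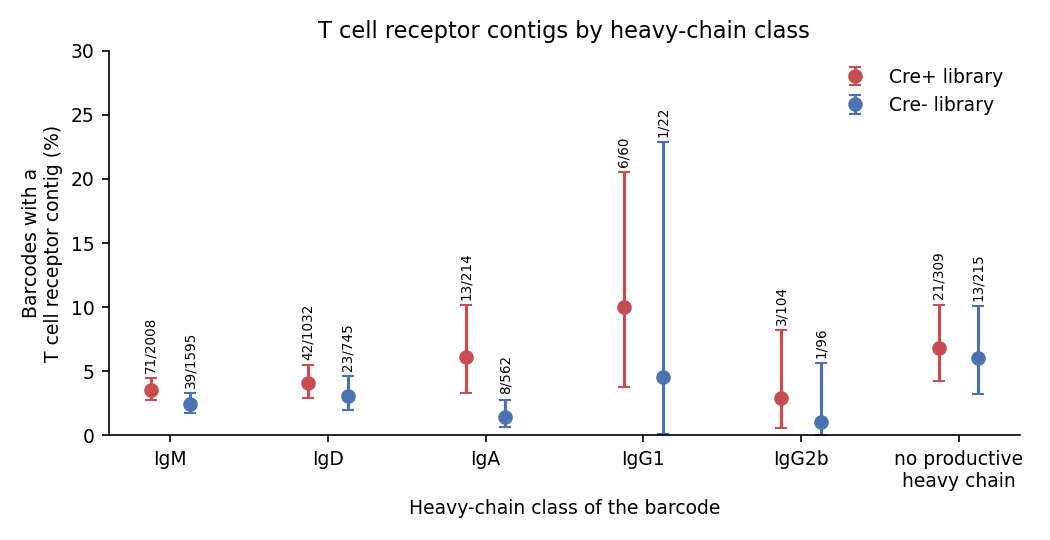
Share of barcodes, in percent, that hold a T cell receptor contig, by the heavy-chain class of the barcode; points are shares, lines exact 95% intervals and the fractions the barcodes with such a contig over all barcodes of that class. IgA stands at 6.07% (Cre+) and 1.42% (Cre-), and within every other class the intervals of both libraries overlap. Of the 562 Cre- IgA barcodes, 416 carry a single heavy-chain CDR3. Outside the most frequent CDR3 of each library, IgA stands at 7.55% and 4.79%, with overlapping intervals. All intervals count barcodes as independent.

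The share of unswitched barcodes varied between segments, but most intervals overlapped that of barcodes without a T cell receptor contig. Among TRAJ9 contigs whose barcode had an isotype, 52 of 55 Cre+ contigs (94.5%, 84.9 to 98.9) and 35 of 36 Cre- contigs (97.2%, 85.5 to 99.9) lay in unswitched barcodes. All TRAJ43 contigs whose barcode had an isotype, 14 of 14 and 9 of 9, lay in unswitched barcodes. Of such TRAJ17 contigs, 9 of 16 (56.3%, 29.9 to 80.2) and 2 of 4 did. Of such TRDC contigs, 7 of 11 (63.6%, 30.8 to 89.1) and 5 of 6 (83.3%, 35.9 to 99.6) did. Of barcodes without a T cell receptor contig, 89.1% (88.0 to 90.1) and 77.3% (75.7 to 78.8) were unswitched. Among the segments named here, only the intervals of Cre+ TRAJ17 and Cre- TRAJ9 lay apart from these. The latter overlapped the Cre- share outside the most frequent CDR3, 89.9% (88.7 to 91.1). Of the unswitched barcodes, 1.71% (1.28 to 2.24) of the Cre+ and 1.50% (1.04 to 2.07) of the Cre- library held TRAJ9. Of the switched barcodes outside the most frequent CDR3 of each library, 3 of 325 (0.923%, 0.191 to 2.67) and 1 of 264 (0.379%, 0.00959 to 2.09) did. TRAJ9 was thus lower among switched barcodes in both libraries, with overlapping intervals. Unswitched barcodes held TRAJ43 in 0.461% (0.252 to 0.771) and 0.385% (0.176 to 0.729) of cases. Switched barcodes outside the most frequent CDR3 held it in 0 of 325 (up to 1.13%) and 0 of 264 (up to 1.39%), with overlapping intervals. TRAJ17 ran the other way in the Cre+ library, with 9 of 3040 unswitched (0.296%, 0.135 to 0.561) and 7 of 325 such switched barcodes (2.15%, 0.870 to 4.39), intervals that do not overlap. These intervals count barcodes as independent, but some of the switched TRAJ17 holders shared a heavy-chain CDR3 or carried a related one, as described below. The separation can therefore not be read as one between independent cells. In the Cre- library TRAJ17 was found in 2 of 2340 (0.0855%, 0.0104 to 0.308) and 2 of 264 (0.758%, 0.0919 to 2.71), with overlapping intervals.

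Some holders had the same heavy-chain CDR3 and the same T cell receptor segment. A heavy-chain CDR3 found in 2 or more holders occurred 4 times in the Cre+ library and 0 times in the Cre- library; these cases were looked for after the segments were seen. The IGHV1-12 and IGHJ4 CDR3 printed first was carried by 3 barcodes, of which 2, both IgG1, held TRAJ17 contigs of 3 and 5 UMIs and 387 and 415 bases. Its relative, which differs at 3 of 27 bases, was carried by 1 IgG1 barcode, and this also held TRAJ17, with 4 UMIs and 380 bases. The IGHV1-72 and IGHJ4 CDR3 was carried by 4 barcodes, of which 1 IgM and 1 IgA barcode held TRAJ17 contigs of 4 and 8 UMIs. The IGHV1-12 and IGHJ2 CDR3 was carried by 5 barcodes, of which 2, both IgA, held TRDC contigs of 6 and 4 UMIs and 461 and 448 bases. Of 5 CDR3s with the same V, J and length that differed from a recurrent one at no more than 15% of bases, the other 4 were carried by barcodes without a T cell receptor contig. They comprise 3 relatives of the IGHV1-12 and IGHJ2 CDR3, which differ at 1, 1 and 2 bases, and 1 relative of the IGHV5-17 CDR3, which differs at 5. The fourth recurrent CDR3 was the most frequent CDR3 of that library, with IGHV5-17, where 2 of 65 barcodes held different segments, TRAJ59 and TRAJ9, with 1 UMI each. Other CDR3s were carried by several barcodes of which 1 alone was a holder. In the Cre+ library, an IGHV1-12 and IGHJ2 CDR3 of 57 bases had 5 barcodes, 1 with a TRDC contig of 10 UMIs. An IGHV1-9 CDR3 had 19 barcodes, 1 with TRAJ46. The Cre- IGHV1-50 CDR3 printed last had 2 barcodes, 1 with TRDC. Outside the most frequent CDR3, a heavy CDR3 found in more than 1 barcode was carried by 10 of 135 Cre+ holders (7.41%, 3.61 to 13.2) and 2.72% of the other barcodes (2.18 to 3.34). In the Cre- library it was carried by 2 of 73 (2.74%, 0.334 to 9.55) and 1.61% (1.16 to 2.18). The intervals were apart in the Cre+ library alone, and the difference between the libraries was not tested. These Cre+ holders include those described above that shared a CDR3 with another holder, and the intervals count them as independent. The Cre+ separation can therefore not be read as one between independent cells.

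The median transcript load of holders was lower than that of other barcodes, with intervals that just overlapped in the Cre+ library and were apart in the Cre- library. Leaving the T cell receptor contigs out, the median holder had 38.5 UMIs in the Cre+ library (interval of the median 35 to 45, highest 264), against 46 in the other barcodes (44 to 47, highest 13745). In the Cre- library the medians were 37 (31 to 41, highest 200) and 46 (44 to 47, highest 17070). Heavy-chain UMIs had medians of 9 in Cre+ holders (8 to 10) and 8 in the other barcodes (8 to 9), and of 8 in Cre- holders (7 to 9) and 10 in the others (10 to 10). The most frequent heavy-chain CDR3 of the Cre- library, with 1 holder in 417 barcodes, had a median of 19. All Cre- barcodes outside it had a median of 9, within the interval of the holders. When all barcodes were ordered by UMI total and cut into 5 ranges of similar size, the share of holders was highest at 26 to 38 UMIs in the Cre+ library (6.14%, 4.53 to 8.11) and at 1 to 25 UMIs in the Cre- library (4.01%, 2.68 to 5.74). It was lowest above 74 UMIs in both, at 3.04% (1.94 to 4.53) and 1.25% (0.541 to 2.45).

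Holders were more frequent in the Cre+ library, where they made up 4.22% of barcodes (3.59 to 4.91) against 2.68% (2.15 to 3.30), a difference of 1.53 percentage points (0.660 to 2.41). Of all contigs, the members made up 1.29% (1.10 to 1.51) and 0.861% (0.690 to 1.06). Among unswitched barcodes the shares were 3.72% (3.07 to 4.45) and 2.65% (2.04 to 3.38), a difference of 1.07 points (0.0908 to 2.02). Outside the most frequent CDR3 of each library they were 4.24% (3.61 to 4.94) and 3.04% (2.44 to 3.74), a difference of 1.19 points (0.254 to 2.12). With contigs of 2 or more UMIs alone, the difference was 0.455 points (-0.0836 to 0.989). Within each of the 5 ranges of UMI total the Cre+ share was the higher, with overlapping intervals in each. Mean depth per barcode ran the other way, at 5871 reads and 94.8 UMIs for Cre+ and 6158 reads and 110 UMIs for Cre-. The median UMI count per barcode, with the T cell receptor contigs left out, was 45 in both libraries. Total reads were 22003594 and 19982305. The part of depth in the difference was not tested, and library and genotype cannot be told apart. The libraries shared 10 barcodes, of which 1 was a Cre+ holder and 0 were Cre- holders.

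T cell receptor segments were also called in contigs that the software gave a mixed chain, which the chain rule leaves out. There were 460 such contigs in 460 Cre+ barcodes (12.3%) and 335 in 335 Cre- barcodes (10.3%). Most joined a T cell receptor J segment to IGHM, the IgM constant gene, in 350 (76.1%) and 270 (80.6%) cases. V was called in 5 and 7 of them, always an immunoglobulin V, and a CDR3 in 0 and 1. Like the members they mostly rested on 1 UMI, in 63.7% and 61.8% of cases, though the highest reached 103 and 61. They were found in 15.2% of Cre+ holders and 12.1% of the other barcodes, and in 17.2% and 10.1% in the Cre- library.

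The most frequent segments of these mixed contigs were not those of the members, although TRAJ30 was among the more frequent in both, with 32 and 22 mixed contigs and 6 and 6 members. TRAJ49 was called in 183 Cre+ and 159 Cre- mixed contigs but in 2 and 1 members, and TRBJ1-1 in 163 and 103 mixed contigs and 0 members. TRAJ9 was called in 7 and 9 mixed contigs, TRAJ17 in 2 and 3, and TRAJ43 in 1 and 0. All TRBJ1-1 mixed contigs carried IGHM. TRAJ13 was paired with IGHG2B, the IgG2b constant gene, in 38 of 43 and 16 of 19 mixed contigs. The barcodes of these TRAJ13 contigs were IgG2b by their own heavy chain in 0 of 38 and 1 of 16 cases and unswitched in 36 and 14. TRAJ7 was paired with IGHA in 9 of 11 and 6 of 7. In 4 contigs of each library a delta J segment, TRDJ2, was joined to the gamma constant segment TRGC3.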

How the data were processed

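Single-cell antigen receptor libraries of mouse Peyer's patch cells were analysed, 1 per genotype. Per the labels, 10x Genomics chemistry that captures the 5' end and enriches receptor transcripts was used, and per the submitters' processing notes Cell Ranger and GRCm38 were used; the version and the reference of receptor segments are not given in the sources used here. The authors deposited contig tables with the count of reads and of UMIs and the length of each contig, and clonotype tables with the count of barcodes, none of them normalised. Every contig deposited was marked as belonging to a cell and as of high confidence, and barcodes outside that selection were not analysed here.

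Members were contigs of chain TRA, TRB, TRD or TRG. The isotype was the constant gene of the productive IGH contig with the most UMIs, and immunoglobulin contigs were those of chain IGH, IGK or IGL. Shares have exact 95% Clopper-Pearson intervals (scipy 1.17.1), and a count of 0 was given the upper end of its interval. The interval of a difference was combined from those of both shares, and that of a median used order statistics. Barcodes of 1 library are not replicates of a genotype, so no test was made. Steps were tested on simulated data. All segments called were counted and named. The members, lists and alternatives were chosen with earlier results of these data known.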

Additional observations from a re-analysis of the deposited data

How the results depend on the processing

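Requiring a productive contig or a CDR3 left 0 members, so the share of barcodes was 0% in both libraries, the difference 0 points and the productive share of contigs 0%; the UMI count of productive members had no value. A count of 0 allows up to 0.0984% of Cre+ and 0.114% of Cre- barcodes. Requiring a T cell receptor constant segment gave 0.454% of Cre+ and 0.308% of Cre- barcodes, a difference of 0.145 points, and median UMIs of 4 and 2. Adding the mixed contigs gave 15.8% and 12.5%, a difference of 3.31 points. With 2 or more UMIs, 1.44% and 0.986% of barcodes (a difference of 0.455 points) and 0.484% and 0.345% of contigs remained; among these holders, 65.2% of Cre+ and 68.0% of Cre- isotypes were unswitched and 17.4% and 24.0% IgA. Without TRAJ17 contigs, an alternative chosen after seeing the data, the Cre+ share was 3.55%. The cause of these shifts was not tested. The other alternatives (1 heavy chain, barcodes of both libraries left out, the most frequent CDR3 left out) stayed within the counting interval of the main value for the shares, medians and isotypes of holders. Directions turned in 1 comparison, the unswitched share of Cre- holders minus other barcodes (8.84 points), which was -2.61 without the most frequent CDR3 and -9.27 with 2 or more UMIs; the Cre+ value of -5.37 became -23.9 with 2 or more UMIs. These alternatives were chosen after seeing the data, and the cause was not tested. No paired analysis was possible because the labels give no replicate numbers and each genotype has 1 library. The low UMI counts limit every statement on single segments.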
